A study of Mus musculus with 2 samples.

Results

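Caveolae and the PMP22 family were described through 6 genes of mouse alveolar organoids, namely *Cav1*, *Cav2*, *Sdpr*, *Ptrf*, *Pmp22* and *Emp2*. They were taken by their symbols from the 27998 genes of both deposited count matrices, and all 6 were found in both. The organoids were grown from sorted lineage-labeled alveolar type 2 (AT2) cells of SPC-CreERT2;R26R-tdTomato mice on a C57BL/6 background, mixed with cultured lung stromal cells in Matrigel for 2 weeks. Control organoids received PBS and the other organoids received IL-1β. Mice in most experiments were aged 6 to 10 weeks and were injected with tamoxifen at 0.2 mg per g of body weight. The number of injections before these organoids was not given in the sources used here. The *SPC* promoter drives a tamoxifen-inducible Cre that marks AT2 cells and their progeny with tdTomato. The stromal cells were depleted of CD31, EpCAM and CD45 cells before culture. Each condition had 1 library of droplet-based 3′ scRNA-seq, so no difference between control and IL-1β could be tested, and every interval given covers counting error only. Sources give different IL-1β doses and culture times for these organoids.

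Caveolae are small flask-shaped pits of the plasma membrane that buffer membrane tension and gather signaling proteins. Caveolins build the membrane coat, with *Cav2* protein needing *Cav1* protein to reach the surface, and cavins form an outer layer that bends the membrane. The thin alveolar type 1 (AT1) cells, through which gas is exchanged, are rich in caveolae, as are endothelial cells, fibroblasts and smooth muscle cells. PMP22 and the epithelial membrane proteins are a related family of tetraspan membrane proteins that associate with integrins and cell junctions, and *Emp2* is abundant in AT1 cells.

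The genes lie at 5 places on 4 chromosomes of GRCm38. *Cav2* (ENSMUSG00000000058, chr6:17281185-17289115, + strand) ends 17219 bases before *Cav1* (ENSMUSG00000007655, chr6:17306335-17341452, + strand), with no annotated gene wholly between them. *Sdpr*, now named *Cavin2* (ENSMUSG00000045954), spans chr1:51289126-51302960 on the + strand. *Ptrf*, now named *Cavin1* (ENSMUSG00000004044), spans chr11:100956733-100970887 on the − strand. *Pmp22* (ENSMUSG00000018217) spans chr11:63128982-63159547 on the + strand and *Emp2* (ENSMUSG00000022505) spans chr16:10281749-10313968 on the − strand. All 6 are protein-coding. Antisense genes overlap *Cav1* and *Cav2* (*Gm15581*, 0 UMIs in the cells kept) and *Sdpr* (*9330175M20Rik*, 2 UMIs, both in control stromal cells).

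The 250 bases upstream of the start are shown for the neighboring caveolins, which differed in how they stood between the libraries, and for *Sdpr* and *Emp2*, which had the lowest and the highest IL-1β to control ratio in AT1-like cells. The sequences are RefSeq promoters of GRCm38.p6 for *Cav1* (chr6:17306085-17306334, + strand, the first of 2 RefSeq starts), *Cav2* (chr6:17280935-17281184, + strand), *Sdpr* (chr1:51288876-51289125, + strand) and *Emp2* (chr16:10313969-10314218, − strand), written 5′ to 3′ along the gene. Capitals mark matches, on either strand, to the TEAD motif GGAATG, the NKX2-1 motif CACTTG, the SP1 motif GGGCGG, an NF-kB motif or the CArG box.
Cav1: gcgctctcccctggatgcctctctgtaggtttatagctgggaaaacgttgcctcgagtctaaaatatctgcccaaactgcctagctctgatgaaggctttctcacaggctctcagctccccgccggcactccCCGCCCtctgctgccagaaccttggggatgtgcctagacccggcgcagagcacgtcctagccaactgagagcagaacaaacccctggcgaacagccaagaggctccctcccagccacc
Cav2: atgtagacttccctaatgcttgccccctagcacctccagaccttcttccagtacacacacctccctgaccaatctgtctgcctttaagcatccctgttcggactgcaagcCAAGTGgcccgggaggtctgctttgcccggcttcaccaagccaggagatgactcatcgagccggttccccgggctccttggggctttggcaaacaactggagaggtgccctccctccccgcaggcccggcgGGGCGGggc
Sdpr: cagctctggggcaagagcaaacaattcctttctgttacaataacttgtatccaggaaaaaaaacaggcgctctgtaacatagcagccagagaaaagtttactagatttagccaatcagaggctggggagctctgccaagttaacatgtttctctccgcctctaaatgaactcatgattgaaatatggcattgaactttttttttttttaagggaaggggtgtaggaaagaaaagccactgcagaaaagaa
Emp2: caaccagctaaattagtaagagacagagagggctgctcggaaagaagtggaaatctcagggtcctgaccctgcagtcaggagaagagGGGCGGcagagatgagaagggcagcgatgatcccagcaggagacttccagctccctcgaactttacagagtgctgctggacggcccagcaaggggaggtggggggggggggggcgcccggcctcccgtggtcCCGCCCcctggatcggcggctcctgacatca
The *Cav1* window held 1 SP1 match. The *Cav2* window held 1 SP1 match and 1 NKX2-1 match. The *Emp2* window held 2 SP1 matches, and the *Sdpr* window, which had a GC content of 40.4% against 59.6% to 62.8% in the other 3, held no match to any of the 5 motifs. SP1 letters were present in 32.74% of all 32851 promoters of this length, NKX2-1 letters in 11.61%, TEAD letters in 12.64%, the NF-kB motif in 7.251% and the CArG box in 1.467%. Counting every RefSeq start, SP1 letters were upstream of 5 of the 6 genes and NKX2-1 letters of 2. TEAD letters were upstream of 2 (*Ptrf* and *Pmp22*), the NF-kB motif of 1 (*Pmp22*, which has 4 starts) and the CArG box of none. A match is a description of the letters and not a measured binding site.

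After the study's limits on genes and UMIs, 2083 control and 3059 IL-1β cells were kept from libraries of 33965848 and 41220175 UMIs, and 11 cell barcodes occurred in both libraries. Cells were clustered without the 6 genes and without 38 further genes of related pathways, and were named from marker genes by a rule chosen once clusters were in view. AT1-like cells numbered 229 in the control library (median 11711 UMIs per cell) and 364 in the IL-1β library (median 11625). The other epithelial cells, mostly AT2-like, numbered 1057 and 2220 (medians 14323 and 11250), and the stromal cells 797 and 475 (medians 15735 and 14849). In all 11 epithelial clusters and in 8 of 11 stromal clusters, 1 library supplied 95% or more of the cells. With 1 library per condition, treatment and library preparation cannot be told apart in any cluster.

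The AT1-like class was held by different clusters in the libraries. In the control library 225 of its 229 cells came from a cluster led by *Igfbp2*, *Spock2*, *Scnn1g* and *Fbln5*, and in the IL-1β library 363 of 364 came from a cluster led by *AW112010*, *Serpinb9*, *Cldn4* and *Tgfb2*. Of 11 AT1 markers, 3 were at least 2-fold lower in the IL-1β cells, where 4.73% of genes with at least 20 UMIs were. They were *Igfbp2* (ratio 0.00864), *Spock2* (ratio 0.165) and *Vegfa* (ratio 0.369), and the other 8 lay within 2-fold. The summed level of the 11 AT1 markers was 22071 UMIs per 1000000 UMIs (CPM) in control and 12417 CPM in IL-1β AT1-like cells. Damage-associated transient progenitors (DATPs) are the intermediate between AT2 and AT1 cells. Of 7 DATP markers, 4 were at least 2-fold higher in the IL-1β AT1-like cells, where 6.21% of genes with at least 20 UMIs were. They were *AW112010* (ratio 31.4), *Ndrg1* (ratio 13.9, on 62 IL-1β and only 3 control UMIs), *Cldn4* (ratio 7.33) and *Sprr1a* (ratio 7.30). The part of these marker differences in the results below was not tested. Endothelial markers, which mark another cell type rich in caveolae, summed to 2.13 CPM in control and 2.47 CPM in IL-1β AT1-like cells, with *Cdh5* and *Kdr* at 0 in both.

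All 6 genes were higher in AT1-like than in other epithelial cells, in both libraries. Counting a gene as past the fold at a ratio of 2 or more, or of 0.5 or less, with at least 20 UMIs over both sides, 6 of 6 were higher in the control library, where 17.7% of all tested genes were, and 6 of 6 in the IL-1β library, where 11.2% were. The median log2 ratio of the 6 genes was 3.97 in control and 3.46 in IL-1β, against 0.33 and 0.25 over all tested genes. The 6 genes were chosen with earlier results of these data known, so these counts are a description and not a test. Levels below, in CPM, divide the UMIs of a gene in a class by all UMIs of that class, and they are compared between cells and not between genes. Each has an exact Poisson 95% interval.

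**Figure D1:**
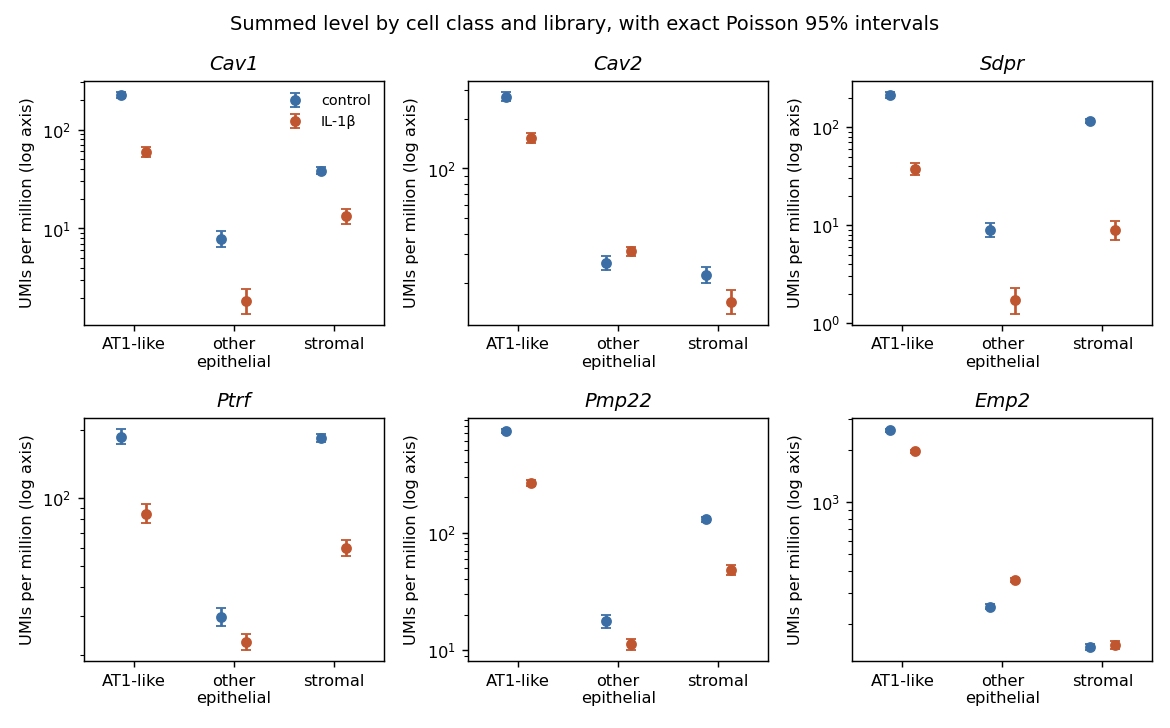
Level of each of the 6 genes (CPM, log axis, a separate axis for each gene) in AT1-like, other epithelial and stromal cells of the control (blue) and IL-1β (orange) libraries; points are levels of summed UMIs and bars exact Poisson 95% intervals. In AT1-like cells every control point lies above its IL-1β point, while the order is the opposite for *Cav2* and *Emp2* in other epithelial cells.

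*Cav1*, the caveolin without which non-muscle caveolae do not form, was at 222 CPM in control AT1-like cells (729 UMIs, interval 206 to 239) and at 59.8 CPM in IL-1β AT1-like cells (291 UMIs, interval 53.1 to 67.1). Stromal cells had 38.4 CPM in control and 13.3 in IL-1β, and other epithelial cells had 7.84 and 1.86. These 6 levels thus fell in the order AT1-like, stromal, other epithelial, with control above IL-1β in each class and no overlap of intervals. The ratio of AT1-like to other epithelial cells was 28.3 in control (exact conditional binomial 95% interval 23.4 to 34.5) and 32.1 in IL-1β (23.6 to 44.3), so that these intervals overlapped. The free RNA estimated below came to most of the lower level in both libraries, though that estimate can be too high. These intervals leave free RNA out. With the 5% of cells of highest doublet score removed and the rest clustered again, the control ratio was 59.3.

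*Cav2*, the caveolin that joins *Cav1* in the coat, was at 275 CPM in control AT1-like cells (interval 257 to 293) and at 154 CPM in IL-1β AT1-like cells (143 to 165). Other epithelial cells had 26.4 CPM in control (24.0 to 29.1) and 31.1 in IL-1β (29.0 to 33.3), and stromal cells had 22.3 (19.9 to 25.0) and 15.3 (12.9 to 18.0). The intervals of neighboring levels overlapped for the other epithelial cells of both libraries, and for control other epithelial and control stromal cells. The AT1-like to other epithelial ratio was 10.4 in control (9.25 to 11.7) and 4.95 in IL-1β (4.48 to 5.48).

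*Sdpr* encodes cavin-2, which shapes the curved membrane, and it was at 212 CPM in control AT1-like cells (697 UMIs, interval 197 to 229) and at 37.8 CPM in IL-1β AT1-like cells (184 UMIs, 32.5 to 43.7). Control stromal cells had 116 CPM (110 to 122) and IL-1β stromal cells 8.88 (7.09 to 11.0), and other epithelial cells had 9.03 (7.62 to 10.6) and 1.71 (1.25 to 2.29). IL-1β stromal cells thus stood beside control epithelial cells outside the AT1-like class, with overlapping intervals. The AT1-like to other epithelial ratio was 23.5 in control (19.6 to 28.3) and 22.1 in IL-1β (15.9 to 31.3). In control the lower level is near the free RNA estimated below, which these intervals leave out.

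*Ptrf* encodes cavin-1, which is required for caveolae to form. Control AT1-like cells had 186 CPM (172 to 202) and control stromal cells 184 CPM (177 to 192), levels that could not be told apart at this depth (ratio 1.01, interval 0.924 to 1.10). IL-1β AT1-like cells had 84.8 CPM (76.9 to 93.4) and IL-1β stromal cells 59.9 (55.0 to 65.0), whereas other epithelial cells had 29.7 in control and 22.8 in IL-1β. The AT1-like to other epithelial ratio was 6.28 in control (5.56 to 7.10) and 3.72 in IL-1β (3.27 to 4.22).

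*Pmp22*, known for its part in peripheral myelin and its dosage-sensitive neuropathies, was at 734 CPM in control AT1-like cells (2409 UMIs, interval 705 to 764) and at 264 CPM in IL-1β AT1-like cells (250 to 279). Stromal cells had 129 CPM (123 to 136) and 48.3 (44.0 to 53.0), and other epithelial cells had 17.6 (15.6 to 19.8) and 11.2 (9.98 to 12.6), and none of the 6 intervals overlapped. The AT1-like to other epithelial ratio was 41.8 in control (36.9 to 47.4), where the lower level is within the free RNA estimated below, and 23.5 in IL-1β (20.7 to 26.8).

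*Emp2*, like *Pmp22* higher in AT1-like than in other epithelial cells, was at 2574 CPM in control AT1-like cells (8451 UMIs, interval 2519 to 2629). In IL-1β AT1-like cells it was at 1956 CPM (9521 UMIs, 1917 to 1995). Other epithelial cells had 251 CPM in control (243 to 259) and 357 in IL-1β (349 to 364), and stromal cells had 147 (141 to 154) and 151 (144 to 159), which overlapped. The AT1-like to other epithelial ratio was 10.3 in control (9.89 to 10.7) and 5.49 in IL-1β (5.33 to 5.64).

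Against stromal cells, 4 of the 6 genes were at least 2-fold higher in control AT1-like cells, where 17.5% of tested genes were, and 5 of 6 in IL-1β AT1-like cells, where 26.6% were. *Ptrf* lay within 2-fold in both libraries (ratios 1.01 and 1.42). *Sdpr* lay within 2-fold in control (1.83, interval 1.67 to 2.00) and was 4.25-fold higher in IL-1β (3.27 to 5.58). *Emp2* had the highest AT1-like to stromal ratio in both libraries, 17.5 in control and 12.9 in IL-1β.

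Free RNA in droplets can place UMIs in cells that do not express a gene, so the low levels were set beside those of genes of another cell type. In other epithelial cells, 6 of 7 stromal markers (*Col1a1*, *Col1a2*, *Col3a1*, *Pdgfra*, *Pdgfrb* and *Dcn*) were at 1.30% to 2.64% of their stromal level in control and at 1.69% to 2.48% in IL-1β. The seventh, *Sparc*, was at 8.99% and 6.25%. It was set apart after its values were seen, since it was at 96.7% and 52.2% of its stromal level in AT1-like cells. In stromal cells the AT1 marker *Ager* was at 2.51% of its AT1-like level in control and 1.73% in IL-1β. The stromal class includes 18 control and 22 IL-1β cells of a cluster with *Ager* among its leading genes. These shares can thus hold more than free RNA, and an estimate made from them can be too high.

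An estimate of free RNA in other epithelial cells was made by taking these shares of *Ager* from the AT1-like level of a gene, and the highest share of the 6 stromal markers from its stromal level. It came to 6.59 of the 7.84 CPM of *Cav1* in control and to 1.37 of 1.86 in IL-1β. In 169 control stromal cells led by *Ptn*, *Cav1* was at 0.713 CPM (0.0863 to 2.58), below the control estimate, which can thus be too high. For *Sdpr* the estimate came to 8.40 of 9.03 CPM and 0.875 of 1.71 CPM. For *Pmp22* it came to 21.8 CPM, above the 17.6 CPM measured, and 5.77 of 11.2 CPM. Over all other epithelial cells, the levels of these 3 genes were thus near the estimate in control. They are not read as expression by the class as a whole. In its 110 control cells led by *Tmem159*, all 3 were above the estimate. *Cav1* was at 17.1 CPM there (11.2 to 24.8), *Sdpr* at 25.9 CPM (18.6 to 35.1) and *Pmp22* at 61.9 CPM (50.3 to 75.5). The estimate was 27.3% to 32.2% of the control level and 9.81% to 12.9% of the IL-1β level for *Cav2*, *Ptrf* and *Emp2*. In stromal cells *Emp2*, the lowest of the 6 genes by this measure, was at 5.72% and 7.74% of its AT1-like level, above the share of *Ager*. That share leaves out free RNA from other epithelial cells, which also hold *Emp2*. In stromal cells AT2 markers were at 2.93% (*Slc34a2*) to 18.2% (*Etv5*) of their other epithelial level in control. In IL-1β they were at 5.68% (*Cxcl15*) to 22.7% (*Etv5*). The free RNA part of stromal *Emp2* was not estimated, so its level and ratio are not read as clear of it.

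The question that the IL-1β organoids address is how the cytokine alters alveolar differentiation. In AT1-like cells each of the 6 genes stood lower with IL-1β, and 4 of 6 (*Cav1*, *Sdpr*, *Ptrf* and *Pmp22*) were at least 2-fold lower, where 4.73% of the 10757 tested genes were. The median log2 ratio of the 6 genes was −1.31, against −0.01 over all tested genes and −0.83 over the 11 AT1 markers. *Sdpr* had the lowest ratio, 0.178 (0.151 to 0.210), followed by *Cav1* at 0.269 (0.234 to 0.309), *Pmp22* at 0.360 (0.336 to 0.385) and *Ptrf* at 0.455 (0.401 to 0.517). *Cav2* and *Emp2* lay within 2-fold, at 0.560 (0.508 to 0.618) and 0.760 (0.738 to 0.783). The interval of *Ptrf* included the 2-fold limit. With cells at a clustering resolution of 0.5, where only 1 IL-1β cell was named AT1-like, 1 of 6 was past the limit in place of 4 (*Pmp22*, 0.157). In that setting, on this 1 IL-1β cell, the AT1-like to other epithelial ratio in IL-1β was 10.9 for *Cav1*, 2.33 for *Pmp22* and 2.93 for *Emp2*. These values are not read as those of a class.

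In the other epithelial cells, 2 of the 6 genes were at least 2-fold lower in IL-1β, *Cav1* at a ratio of 0.238 (0.167 to 0.333) and *Sdpr* at 0.190 (0.133 to 0.267), where 5.93% of tested genes were lower to this extent. *Ptrf* at 0.769 (0.681 to 0.870) and *Pmp22* at 0.639 (0.541 to 0.755) were lower within 2-fold. *Cav2* at 1.18 (1.04 to 1.33) and *Emp2* at 1.42 (1.37 to 1.48) were higher within 2-fold. For *Cav1* and *Sdpr* the control levels are near the estimate of free RNA, and for *Pmp22* the control level is below it. The ratios of these 3 genes, here and in the settings below, are thus not read as a difference in expression by these cells. At a resolution of 0.5, where the IL-1β AT1-like cluster was counted with these cells, none of the 6 was at least 2-fold lower (*Cav1* 1.37, *Sdpr* 0.810) and 2 were at least 2-fold higher (*Pmp22* 2.87, *Emp2* 2.41). With the highest doublet scores removed, the *Cav1* ratio was 0.380. Within clusters named AT2-like, a setting added after the data were seen, the *Cav1* ratio was 0.154, and those of *Sdpr*, *Pmp22* and *Emp2* were 0.122, 0.444 and 1.31.

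In stromal cells 4 of the 6 genes were at least 2-fold lower in IL-1β, where 13.4% of tested genes were. *Sdpr* was at 0.0766 of its control level (0.0607 to 0.0954), *Ptrf* at 0.325 (0.296 to 0.356), *Cav1* at 0.347 (0.284 to 0.423) and *Pmp22* at 0.373 (0.336 to 0.414). *Cav2* lay within 2-fold at 0.687 (0.560 to 0.841), and *Emp2* was at 1.03 (0.961 to 1.10). The median log2 ratio was −1.47, against −0.33 over all tested genes. Contractile markers, which accompany caveolae in smooth muscle and myofibroblasts, moved with these genes. Their summed level was 557 CPM in control and 54.6 CPM in IL-1β stromal cells, and 4 of 4 tested were at least 2-fold lower (*Acta2*, ratio 0.0907, *Tagln*, 0.115, *Cnn1*, 0.103, and *Myh11*, 0.160). Without the contractile clusters, again a setting added after the data were seen, *Sdpr* was at 0.0809, *Ptrf* at 0.305, *Cav1* at 0.369 and *Pmp22* at 0.409.

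**Figure D2:**
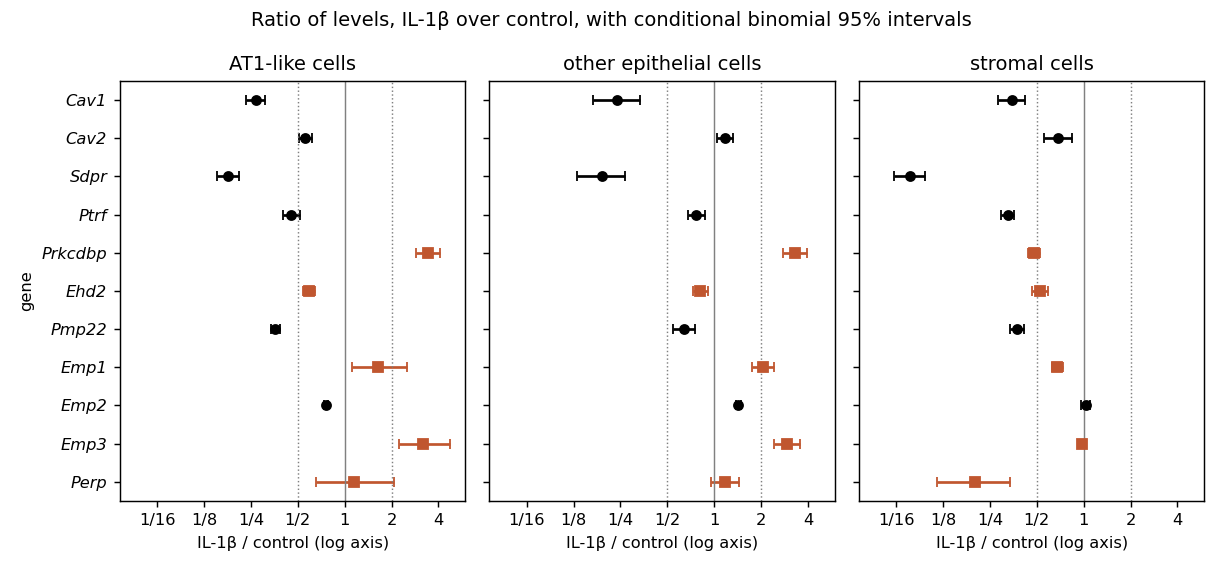
Ratio of the level in IL-1β to that in control cells (log axis, dotted lines at 0.5 and 2) for the 6 genes (black circles) and for related genes (orange squares), with conditional binomial 95% intervals. *Sdpr* lies left of the lower line in all 3 classes, while *Prkcdbp* lies right of the upper line in both epithelial classes and left of the lower line in stromal cells.

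Endothelial markers went the other way in stromal cells, at a summed 2.65 CPM in control and 43.5 CPM in IL-1β. They came largely from 4 IL-1β cells, which held 380 of the 411 endothelial UMIs of the class and also 17 of its 84 *Sdpr* UMIs, 21 of its 566 *Ptrf* UMIs and 3 of its 126 *Cav1* UMIs. In these 4 cells *Sdpr* was at 198 CPM, above the 8.88 CPM of the class.

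Within each library, the levels differed among clusters, which were formed without these genes. Among control epithelial cells outside the AT1-like class, an unnamed cluster of 110 cells led by *Tmem159*, *Lgals3*, *Cbr2* and *S100a6* stood between the AT2-like and the AT1-like clusters for all 6 genes. Its *Emp2* level was 738 CPM, against 194 CPM in the 887 AT2-like cells and 2634 CPM in the AT1-like cluster. *Pmp22* was at 61.9, 11.8 and 754 CPM in the same order, and *Sdpr* at 25.9, 6.85 and 218 CPM.

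Among IL-1β epithelial cells, the clusters with the highest *Emp2* outside the AT1-like class were those named DATP-like. One had 338 cells, with *Susd2* and *Ero1l* among its leading genes, and was at 648 CPM. The other had 426 cells, led by *Cd14* and *Cxcl5*, and was at 510 CPM. Its name is weaker, as its DATP markers had a mean log2 fold of 0.294 over other epithelial cells, against 1.62 in the first. In it 4 DATP markers were above the other epithelial cells, against 7 in the first. The 4 other clusters, including all those named AT2-like, had 230 to 279 CPM. *Pmp22* followed the same split, at 24.8 and 22.5 CPM against 4.90 to 5.92 CPM. *Cav1* was at 6.49 CPM in the first DATP-like cluster (23 UMIs, 4.11 to 9.73). It was at 1.64 CPM in the second (8 UMIs, 0.707 to 3.23), against 0.821 to 1.18 CPM in the other 4 (1 to 10 UMIs each). The free RNA estimates for IL-1β other epithelial cells were 1.37 CPM for *Cav1* and 5.77 CPM for *Pmp22*. *Cav1* outside the first cluster, and *Pmp22* in the other 4, are near these estimates and are not read as graded expression. *Sdpr* was at 3.95 and 2.87 CPM in the DATP-like clusters (14 UMIs in each) and at 37.7 CPM in the AT1-like cluster. The 47 cells led by *Ccl20* had 3.55 CPM on 3 UMIs (0.733 to 10.4).

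**Figure D3:**
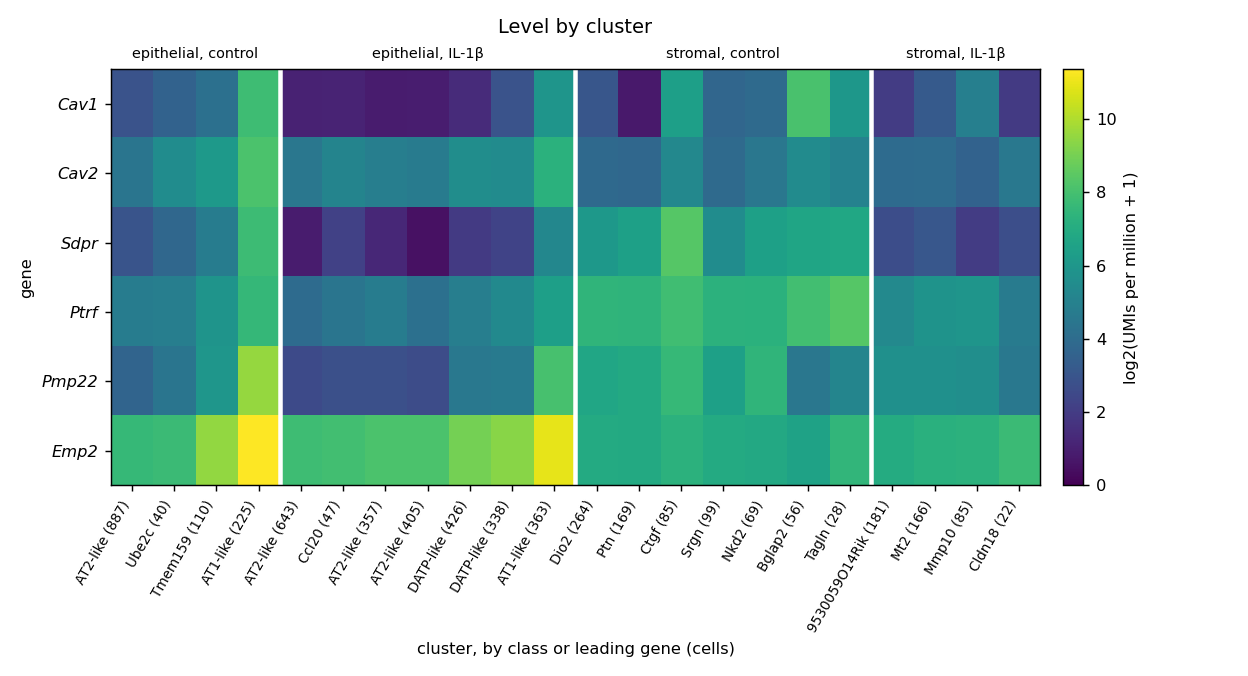
Level of each gene as log2(CPM + 1) (color) in each cluster with at least 20 cells of a library, named by class where AT1-like, AT2-like or DATP-like and otherwise by its first leading gene, with the number of cells in parentheses; white lines separate epithelial and stromal clusters and libraries. The AT1-like columns are the brightest epithelial columns for all 6 genes, and *Cav1* is bright in a few stromal clusters only.

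Stromal clusters split the genes further. *Cav1* was at 270 CPM in a control cluster of 56 cells led by *Bglap2*, *Prlr*, *Fabp4* and *G0s2*, and at 0.713 CPM in 169 control cells led by *Ptn*. The *Fabp4* cluster made up 7.03% of control stromal cells and held 238 of their 521 *Cav1* UMIs (45.7%). It did not stand out for *Pmp22*, at 21.6 CPM, the lowest of the 7 control stromal clusters. Without this cluster, a setting added after the data were seen, the stromal *Cav1* ratio of IL-1β to control was 0.598 in place of 0.347, and 3 rather than 4 of the 6 genes were at least 2-fold lower.

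*Sdpr* was highest in a contractile control cluster of 85 cells with *Ctgf*, *Wisp2* and *Thbs1* among its leading genes, at 331 CPM against 45.7 to 108 CPM in the other 6 control clusters. This cluster made up 10.7% of control stromal cells and held 685 of their 1576 *Sdpr* UMIs (43.5%). *Ptrf* was highest in the other contractile cluster, of 28 cells led by *Tagln*, *Acta2* and *Myl9*, at 329 CPM against 154 to 243 CPM. In the 4 IL-1β stromal clusters *Sdpr* was at 3.03 to 7.48 CPM and *Ptrf* at 25.2 to 59.5 CPM, below every control cluster for both. The 25.2 CPM of *Ptrf* (9 UMIs) came from 22 cells led by the epithelial genes *Cldn18* and *Slc34a2*. Without them the lowest *Ptrf* level was 39.7 CPM. The 19 IL-1β cells in the *Ctgf* cluster, too few to be counted as a cluster of their own, had 50.3 CPM of *Sdpr* and 172 CPM of *Ptrf*. They include the 4 cells with endothelial markers, and the 15 others had 24.4 CPM of *Sdpr* (12 UMIs) and 159 CPM of *Ptrf*.

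*Emp2* varied less among stromal clusters, from 91.9 to 175 CPM in control and from 125 to 216 CPM in IL-1β. The 216 CPM came from 22 cells led by the epithelial genes *Cldn18* and *Slc34a2*. In the control library 18 cells of that cluster held 360 of 1999 *Emp2* UMIs (18.0%), and the stromal *Emp2* ratio without the cluster, a setting added after the data were seen, was 1.2.

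The pattern shared by the 6 genes was described over 22 columns, each a cluster in 1 library, which share libraries, depth and cell source. Over the 11 epithelial columns, Pearson r between pairs of the 6 genes ran from 0.79 to 0.98. The AT1-like column of each library was its highest epithelial column for all 6 genes. The part of this difference in these r values was not tested. Over the 11 stromal columns, *Sdpr* and *Ptrf* had an r of 0.91 and *Cav1* and *Cav2* an r of 0.74, whereas *Emp2* had an r of −0.43 to −0.0035 with the others and *Cav1* an r of −0.18 with *Pmp22*. Of 10785 genes with at least 200 UMIs, those most like the mean profile of the 6 genes were *Fbln5* (r 0.95), *Csf1r* (0.92), *Ifit3* (0.90), *Zfp365* (0.89) and *Ehd2* (0.89). The gene most like each of 5 members was *Zfp365* for *Cav1* (0.78), *Vcl* for *Sdpr* (0.94), *2310022B05Rik* for *Ptrf* (0.94), *Dpysl2* for *Pmp22* (0.92) and *Gprc5a* for *Emp2* (0.95).

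Cells with a UMI were counted after thinning each cell to 4000 UMIs, which left out no cell. Among AT1-like cells, *Cav1* was found in 50.7% of control cells (exact Clopper-Pearson 95% interval 44.0% to 57.3%, 78.2% before thinning) and in 20.9% of IL-1β cells (16.8% to 25.4%, 40.9% before thinning). In other epithelial cells, which serve as the class of low expression, it was found in 2.08% and 0.901%. *Sdpr* was found in 50.7% and 11.5% of AT1-like cells, against 2.93% and 0.991% of other epithelial cells. *Pmp22* was found in 90.0% and 57.4% of AT1-like cells, against 6.34% and 3.74%. *Emp2* was found in nearly every AT1-like cell of either library (99.1% and 99.2%), so that its share had no room to show the difference in level, and in 56.8% and 70.5% of other epithelial cells. In stromal cells *Ptrf* was found in 52.1% and 17.9% and *Sdpr* in 25.0% and 3.37%.

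The number of these genes found in a cell was counted. In control AT1-like cells 151 of 229 (65.9%) had a UMI of at least 4 of the 6 genes, with a median of 4, whereas 66 of 364 IL-1β AT1-like cells (18.1%) did, with a median of 2. All 6 were found in 26 control cells (11.4%) and in 1 IL-1β cell (0.275%). At least 4 genes were found in 35 of 797 control stromal cells (4.39%) and 4 of 475 IL-1β stromal cells (0.842%), and in 11 of 1057 (1.04%) and 5 of 2220 (0.225%) other epithelial cells. *Cav1* and *Cav2* were found together in 39.3% of control AT1-like cells, where their separate shares multiply to 32.3%, and in 7.97% of IL-1β AT1-like cells, where they multiply to 8.43%. Of the 6 pairs looked at in control AT1-like cells this was the pair farthest above the product, while *Ptrf* and *Sdpr* (23.6% against 23.9%) and *Pmp22* and *Emp2* (89.1% against 89.2%) were at it.

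**Figure D4:**
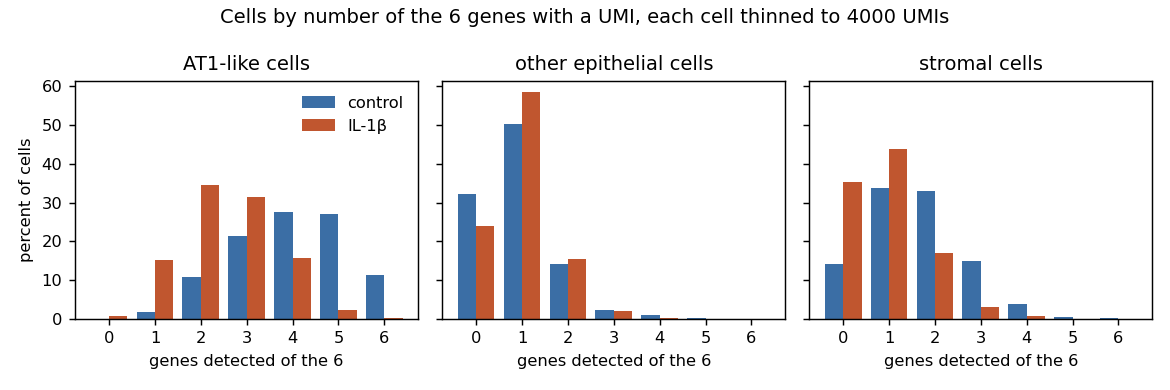
Percent of cells by the number of the 6 genes with a UMI, each cell thinned to 4000 UMIs, in control (blue) and IL-1β (orange) cells of each class. Control AT1-like cells have a median of 4 genes and IL-1β AT1-like cells a median of 2, and cells of both libraries have few of the genes in the other epithelial class.

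The remaining coat genes did not all move with the members. *Prkcdbp*, which encodes cavin-3, went the other way from *Sdpr* and *Ptrf* in epithelial cells. It was at 46.6 CPM in control and 160 CPM in IL-1β AT1-like cells (ratio 3.44, 2.89 to 4.12), and at 9.16 and 30.3 CPM in other epithelial cells (3.30, 2.77 to 3.97). In stromal cells it went the same way as they did, at 156 and 75.2 CPM (0.481, 0.441 to 0.524). It was the only tested gene of its 3-gene list in AT1-like cells, where 6.21% of tested genes were higher to this extent. The ratio of AT1-like to other epithelial cells for *Prkcdbp* was 5.09 in control and 5.30 in IL-1β.

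Genes of the caveola neck and of trafficking lay mostly within 2-fold. In AT1-like cells none of 6 tested was past 2-fold between libraries, and *Ehd2*, the ATPase that holds caveolae at the membrane, was at 298 CPM in control and 176 CPM in IL-1β (ratio 0.589). *Ehd2* was the neck gene that was higher in AT1-like than in other epithelial cells, by 8.62-fold in control (7.76 to 9.59) and 6.25-fold in IL-1β (5.66 to 6.91), while *Ehd3* was lower on 5 and 3 AT1-like UMIs (0.279, 0.0884 to 0.676, and 0.0952, 0.0194 to 0.283), where 9.01% and 8.06% of tested genes were lower to this extent. In other epithelial cells none of 7 was past 2-fold. In stromal cells 2 of 7 were lower in IL-1β (*Ehd4*, 0.227, 0.176 to 0.289, and *Ehd3*, 0.385, 0.240 to 0.599), where 13.4% of tested genes were. None of 5 tested caveolin partners was past 2-fold in AT1-like or in stromal cells. In other epithelial cells, where 9.62% of tested genes were at least 2-fold higher in IL-1β, 1 of 6 partners was, *Nos3* at 2.07 (1.19 to 3.79).

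Among relatives of PMP22, *Emp3* was at 11.0 CPM in control and 35.1 CPM in IL-1β AT1-like cells (ratio 3.20, 2.23 to 4.73). It was 1 of 3 tested, where 6.21% of all tested genes were higher to this extent. In other epithelial cells 2 of 3 were higher, *Emp3* (2.93, 2.44 to 3.54) and *Emp1* (2.05, 1.75 to 2.41), where 9.62% of tested genes were. In stromal cells 2 of 4 were lower, *Perp* (0.202, 0.114 to 0.337) and *Tmem47* (0.386, 0.293 to 0.504), where 13.4% of tested genes were. None was higher, where 5.32% of tested genes were. None of the 3 tested relatives was at least 2-fold higher in AT1-like than in other epithelial cells in either library, unlike *Pmp22* and *Emp2*.

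Integrin partners and other endocytic coats were compared in the same way. Of 6 integrin-linked genes, *Itga6* (2.02, 1.50 to 2.77) and *Itgb4* (4.14, 1.85 to 10.9) were higher in IL-1β AT1-like cells, where 6.21% of tested genes were. These 2 pair as the laminin receptor of hemidesmosomes. *Itga6* was also higher in other epithelial cells (2.06), where 9.62% of tested genes were, and none of the 6 was past 2-fold in stromal cells. *Itgb3*, a chain of vitronectin receptors, was 39.3-fold higher in AT1-like than in other epithelial cells in control and 20.9-fold in IL-1β. Both flotillins, which form a separate kind of membrane microdomain, lay within 2-fold between libraries in all 3 classes, and *Flot1* was higher in AT1-like than in other epithelial cells (3.73 in control, 2.39 in IL-1β). Of 8 genes of the clathrin coat, none was past 2-fold between libraries in either epithelial class. *Cltb* was lower in IL-1β stromal cells (0.491), where 13.4% of tested genes were.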

How the data were processed

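The authors deposited 1 matrix of raw UMI counts per gene and cell for each library, made with Cell Ranger on GRCm38. The matrices still hold barcodes outside the study's limits and give no cell types. Values used here are those counts, and no other unit was read.

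Kept cells had over 2000 UMIs and between 500 and 7000 genes, as in the study's limits. No doublets were removed, and removing the 5% of cells with the highest scrublet score was an alternative. Counts were scaled to 10000 per cell, and 50 principal components and 15 neighbors were used in scanpy 1.11.5, followed by the Leiden algorithm (leidenalg 0.10.2, resolution 1.0) over all cells and then within epithelial and stromal cells. The 6 genes and 38 genes of 7 pathway lists were left out of clustering. The members, lists and markers were chosen with earlier results of these data known. Clusters were named by the class of markers with the largest mean log2 fold over other cells (pseudocount 0.1). The mean had to be positive, with at least 3 of its markers above those cells and found in 5% or more of the cluster. No other class could have more markers among the 10 leading genes. Clusters that failed were left unnamed. One was the 110 control cells led by *Tmem159*, whose highest class was AT1 at a mean of -0.0401. They were counted with other epithelial cells.

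Levels are UMIs summed over a class per 1000000 (CPM), with exact Poisson 95% intervals, and ratios have exact conditional binomial intervals (scipy 1.17.1). UMIs without replicate libraries give counting error only. A gene was tested for the 2-fold limit with at least 20 UMIs over both sides. The share of all such genes past the limit is the background. Of a pathway list, up to 3 genes per direction whose interval limit lies farthest from 1 were named, and *Ehd2* in the comparison of libraries for its pattern. Likeness is Pearson r of log2(CPM + 1) over clusters with at least 20 cells of a library. Intervals and calls were run on simulated Poisson counts, the model that the intervals assume. That run held no variation between cells or libraries, so it cannot tell how the intervals do under such variation. Gene positions are from GENCODE M21 and promoters from RefSeq on GRCm38.p6. The alternatives varied the cell filter, doublets, resolution, algorithm, random seed, joint clustering, clustering genes, scaling, summing and AT1 naming. Some genes that these rules name are not reported here.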

Additional observations from a re-analysis of the deposited data

Results flagged for a closer look

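2 genes had ratios of IL-1β to control on opposite sides of 1 in different cell classes. *Cav2* was higher in IL-1β other epithelial cells (ratio 1.18) and lower in AT1-like (0.560) and stromal cells (0.687). *Emp2* was higher in IL-1β other epithelial cells (ratio 1.42) and lower in AT1-like cells (0.760). With 1 library per condition the difference between classes was not tested. Both genes kept these directions in the 2 epithelial classes under all 11 alternative settings. In other epithelial cells *Cav2* ranged from 1.07 to 1.89 and *Emp2* from 1.29 to 2.41. Both upper ends came from a resolution of 0.5, where the IL-1β AT1-like cluster was counted with these cells. In AT1-like cells the setting at a resolution of 0.5 rests on 1 IL-1β cell.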

How the results depend on the processing

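Of 330 ratios of the 6 genes under 11 alternative settings, 254 moved by less than their counting error, 75 moved by more, and 1 that had been past 2-fold came to the other side of 1. It was that of *Cav1* in other epithelial cells, 1.37 at a resolution of 0.5, where 1 IL-1β cell was named AT1-like and the count of genes at least 2-fold lower in AT1-like cells was 1 instead of 4. Over the other 10 alternatives this count was 3 to 5, and the ratios in AT1-like cells stayed below 1 for all 6 genes in all 11. *Sdpr* there ranged from 0.146 to 0.543 and *Cav1* from 0.215 to 0.520, with both upper ends from the 1 IL-1β cell at a resolution of 0.5. The stromal count was 4 in all 11, with *Sdpr* at 0.0740 to 0.0840, and it was 3 in the added setting without the *Fabp4* cluster. In most of the 11, among them a resolution of 0.5 and another random seed, the stromal class kept 797 control and 475 IL-1β cells. These settings thus hardly varied the stromal class. Clustering the libraries separately and naming AT1 cells without late markers cannot change the stromal class, and the latter left every class at the same size. Part of this agreement was thus fixed in advance. The count of genes higher in AT1-like than in other epithelial cells was 6 in all 11 in both libraries. At a resolution of 0.5 the IL-1β count rests on 1 AT1-like cell and is not read as agreement. Among ratios within 2-fold, *Pmp22* (2.87 and 1.02 at resolutions of 0.5 and 2.0) and *Ptrf* (1.08 at 0.5) in other epithelial cells and *Emp2* in stromal cells (0.996 with another scaling) also crossed 1. With Spearman in place of Pearson correlation, 3 of the 5 genes most like the mean profile were shared.

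The highest 5% of scrublet scores held 32 of 229 control and 4 of 364 IL-1β AT1-like cells, and 5 of the 6 genes were at least 2-fold lower in AT1-like cells after their removal and a new clustering, which named 197 control and 417 IL-1β cells AT1-like. No paired analysis was possible because each condition has 1 library. Depth limits the *Cav1* and *Sdpr* levels of IL-1β other epithelial cells, which rest on 49 and 45 UMIs.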
